A study of Mus musculus with 6 samples.

Results

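The cytochrome P450 genes described here are 72 genes of mouse P450 families 1 to 4. They were taken from the array as every gene whose probe sets carried a single symbol of the form Cyp, a family digit from 1 to 4, a subfamily letter and a number, out of 22180 genes with such a probe set. Symbols marked as pseudogenes and 3 further genes of these families were left out and are not analysed here. Family 1 gave 3 genes, family 2 gave 45, family 3 gave 7 and family 4 gave 17, in 20 subfamilies. Where a gene had more than 1 probe set, as 3 members did, the brightest was used. The rule picks genes by symbol, but it was set with earlier results of these data known.

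P450 enzymes are haem proteins, held mostly in the endoplasmic reticulum, that insert an oxygen atom into their substrate with electrons passed on from P450 reductase. Families 1 to 3 are known for oxidising drugs, pollutants and steroids, and family 4 for hydroxylating fatty acids and eicosanoids at the end of the chain. In mouse liver many of them are confined to hepatocytes around the central vein, many are induced through the nuclear receptors CAR, PXR and PPAR alpha or the aryl hydrocarbon receptor, and several are set by the sex-specific rhythm of growth hormone through STAT5B.

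The samples were livers of 3 mice with a whole-body Gpr146 knockout (KO) and 3 wild-type (WT) littermates. All 6 were chow-fed C57BL/6J males aged 24 weeks that had been fasted for 16 hours and refed for 6 hours. Each mouse gave 1 sample on 1 whole-transcript array, and values are on a log2 scale, so that a difference of 1 is a doubling of signal. The sources used here do not say which exons the knockout removes. Gpr146, the G protein-coupled receptor targeted, measured 4.61, 4.28 and 3.87 in KO mice 1 to 3, against 5.96, 5.56 and 5.65 in WT mice 1 to 3. Every KO liver lay below every WT liver, by -1.47 ± 0.19 (difference ± SE), with an adjusted p of 0.0702 in limma. Alb, the albumin gene of hepatocytes, was at 11.90 to 11.92 in KO and at 11.90 to 11.95 in WT livers. The differences of the 6 hepatocyte markers lay between -0.09 and 0.04. Whole liver RNA was measured, so that fewer cells of a type and less RNA per cell cannot be told apart.

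Across the whole set, no P450 gene passed the test between KO and WT livers, and most differences were small. Of the 72 genes, 44 were bright enough to be tested, in the upper 50% of genes by mean signal. Of these, 24 were higher and 20 lower in KO livers, with a median difference of 0.0043, against 0.027 over all 11090 genes tested. The share higher in KO livers was 54.5% of the members, against 57.7% of all genes tested. limma's adjusted p lay between 0.277 and 0.996 for the 44 P450 genes, and 0 were under 0.05, while 0.0361% of all genes tested were. At an unadjusted limma p under 0.05 there were 9 members, or 20.5%, against 9.13% of all genes. Of these 9, 6 were higher in KO livers (13.6% of members, against 6.16% of all genes) and 3 were lower (6.82%, against 2.98%). The KO and WT values did not overlap for 10 members (22.7%, against 14.8% of all genes). Every KO value lay above every WT value for 8 of them (18.2%, against 9.63%) and below for 2 (4.55%, against 5.16%). The exact permutation p of each of those 10 genes is 0.1, the smallest that 3 mice against 3 allow.

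The P450 genes also differed more from mouse to mouse than most genes. Their median SD within a genotype was 0.258, against 0.139 over all genes tested, and 22 of the 44 exceeded the 90th percentile of all genes. The median size of a P450 difference was 0.184, against 0.0982 for all genes, and 24 of the 44 lay within 0.2 of no difference. For a typical member the 95% confidence interval reached 0.378 to either side of the difference. A gene whose interval spans 0 is therefore not shown to be equal in the 2 genotypes.

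**Figure D1:**
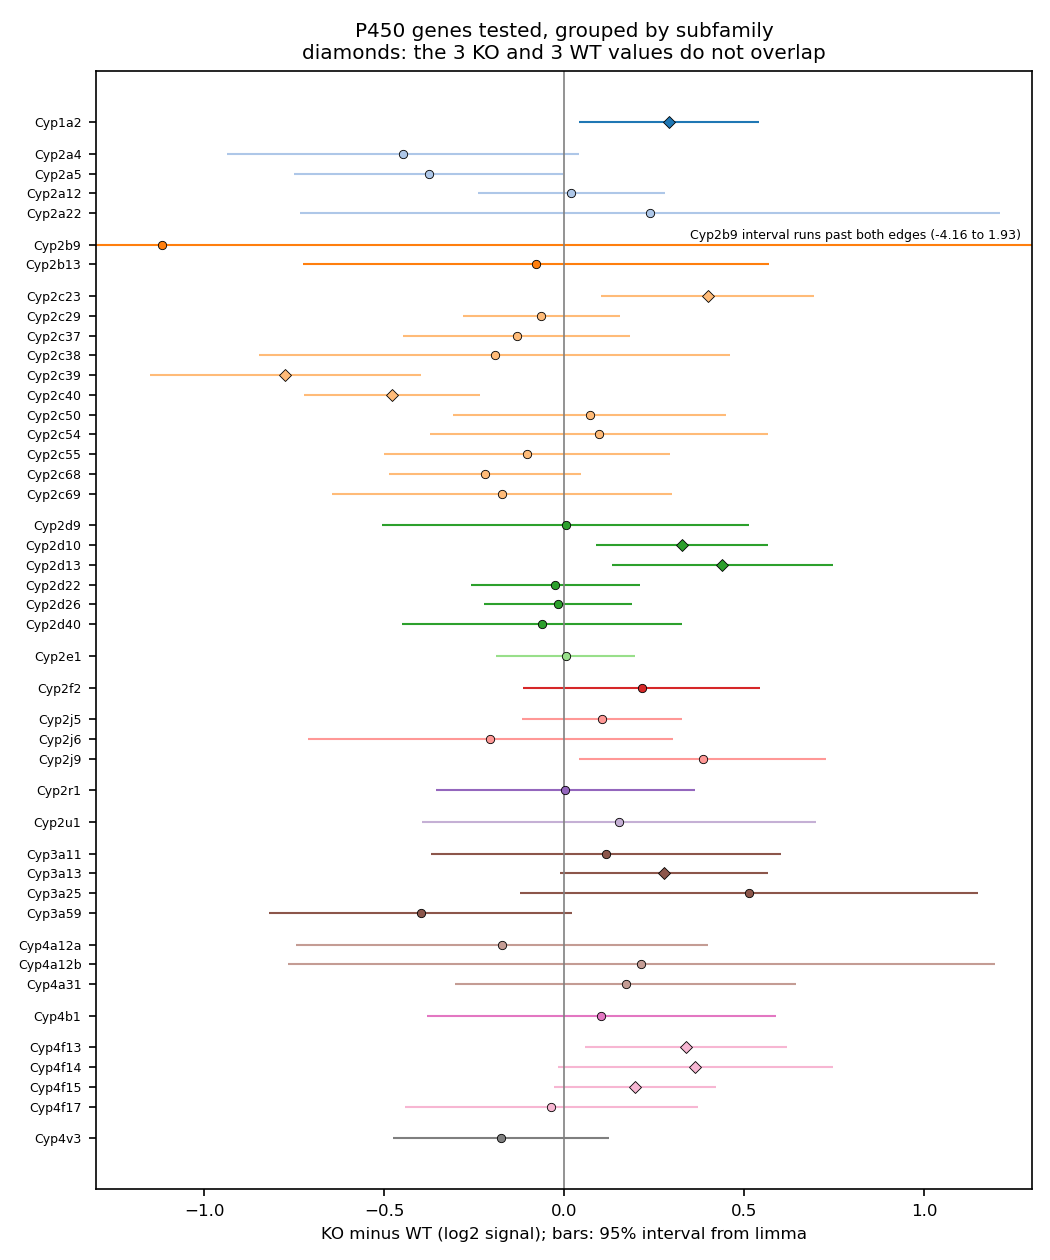
KO minus WT differences (log2, horizontal axis) of the 44 P450 genes tested, grouped by subfamily down the vertical axis, with 95% confidence intervals from limma. The point estimates lie on both sides of 0, the members whose KO and WT values do not overlap are marked, and the interval of Cyp2b9 (-4.16 to 1.93) runs beyond the axis.

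The other 28 members were below the signal filter, with mean signals of 1.51 to 2.90. They were Cyp1a1, Cyp1b1, Cyp2b10, Cyp2b19, Cyp2b23, Cyp2c65, Cyp2c66, Cyp2d11, Cyp2d12, Cyp2d34, Cyp2g1, Cyp2j8, Cyp2j11, Cyp2j12, Cyp2j13, Cyp2s1, Cyp2t4, Cyp3a16, Cyp3a44, Cyp3a57, Cyp4a29, Cyp4a30b, Cyp4f16, Cyp4f18, Cyp4f37, Cyp4f39, Cyp4f40 and Cyp4x1. Among them are Cyp1a1, the inducible target of the aryl hydrocarbon receptor, and Cyp2b10, the usual readout of CAR. Cyp2b10 was at 1.92, 1.98 and 2.01 in KO livers, against 2.21, 2.05 and 2.01 in WT livers, which is near the bottom of the array's scale. The genotypes did not overlap for 3 of the 28, Cyp2b10, Cyp2s1 and Cyp4a29, all lower in KO livers. Among all genes above the filter the share was 14.8%, and the share among all genes below it was not counted. No direction can be read from so few values this near the bottom of the scale. In a fit with no signal filter, the differences of the 28 genes ran from -0.26 to 0.20 and the lowest limma adjusted p was 0.573, for Cyp4a29.

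The widest spread between mice among the members was that of Cyp2b9. This gene encodes a steroid hydroxylase known as female-biased in mouse liver, and it measured 8.43, 5.13 and 5.41 in KO mice 1 to 3, against 7.38, 10.32 and 4.61 in WT mice 1 to 3. The highest and the lowest of the 6 values were both WT livers, so the genotypes overlapped completely. WT mouse 2 had 52.3 times the signal of WT mouse 3, and KO mouse 1 had 9.87 times that of KO mouse 2. Of all 11090 genes, only Hsd3b5 covered a wider range over the 6 livers. The difference of -1.12 ± 1.34 (SE) had a 95% interval of -4.16 to 1.93 and a limma adjusted p of 0.844. Leaving out WT mouse 2 turned it to 0.33, and leaving out WT mouse 3 gave -2.53.

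Cyp2b13, also female-biased, was at 3.39, 2.90 and 2.79 in KO livers, against 3.02, 3.76 and 2.54 in WT livers. WT mouse 2 was again highest, KO mouse 1 next and WT mouse 3 lowest. Its difference was -0.08 ± 0.28, with a limma adjusted p of 0.955. Cyp2a4, a female-biased steroid hydroxylase, measured 6.83, 6.45 and 6.21 in KO livers, against 6.57, 7.36 and 6.91 in WT livers, a difference of -0.45 ± 0.21 (adjusted p = 0.576 in limma). Cyp2a5, which oxidises coumarin and nicotine, measured 4.31, 4.11 and 3.84 in KO livers, against 4.22, 4.75 and 4.42 in WT livers. Its difference was -0.38 ± 0.16 (adjusted p = 0.545 in limma). Without WT mouse 2 the differences were -0.24 for Cyp2a4 and -0.23 for Cyp2a5. Both genes had the same order of mice, with WT mouse 2 highest and KO mouse 3 lowest, and both sets of genotype values overlapped through KO mouse 1 and WT mouse 1.

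The upstream sequences of these 2 gene pairs are shown because the mice ranked alike, or nearly so, within each pair. Each is the 250 bases before the start of the gene, plus strand, from RefSeq on GRCm38.p6. Cyp2b9 lies at chr7:26173159-26173408, Cyp2b13 at chr7:26061245-26061494, Cyp2a4 at chr7:26306942-26307191 and Cyp2a5 at chr7:26835089-26835338. Capitals mark the bases at which a sequence differs from its partner or faces a gap in it. The first base of Cyp2a4 and the last base of Cyp2a5 are such gap positions at the window ends.
Cyp2b9: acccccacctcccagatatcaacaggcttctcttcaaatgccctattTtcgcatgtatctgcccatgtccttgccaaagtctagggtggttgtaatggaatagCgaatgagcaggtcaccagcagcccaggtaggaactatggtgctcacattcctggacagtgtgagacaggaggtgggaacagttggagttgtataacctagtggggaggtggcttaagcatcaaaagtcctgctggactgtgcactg
Cyp2b13: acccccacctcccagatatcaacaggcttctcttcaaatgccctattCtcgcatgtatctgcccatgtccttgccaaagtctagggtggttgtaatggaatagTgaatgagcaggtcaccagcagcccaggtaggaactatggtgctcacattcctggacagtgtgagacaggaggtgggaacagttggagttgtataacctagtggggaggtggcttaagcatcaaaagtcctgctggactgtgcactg
Cyp2a4: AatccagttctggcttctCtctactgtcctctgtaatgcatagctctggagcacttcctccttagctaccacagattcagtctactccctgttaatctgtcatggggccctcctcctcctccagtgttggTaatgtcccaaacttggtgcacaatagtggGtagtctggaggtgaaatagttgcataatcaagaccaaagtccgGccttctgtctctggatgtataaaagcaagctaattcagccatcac
Cyp2a5: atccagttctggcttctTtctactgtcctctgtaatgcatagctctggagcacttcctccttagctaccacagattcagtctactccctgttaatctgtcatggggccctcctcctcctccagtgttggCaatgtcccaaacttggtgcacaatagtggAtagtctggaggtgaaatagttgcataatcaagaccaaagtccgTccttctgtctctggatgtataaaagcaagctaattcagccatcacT
Cyp2b9 and Cyp2b13 were identical at 248 of 250 bases (99.2%), with the substitutions T48C and C104T, counted from 1 at the 5′ end of the Cyp2b9 window. Cyp2a4 and Cyp2a5 matched at 245 of 251 aligned positions (97.6%). Of the 6 others 2 are gaps at the window ends, and the rest are the substitutions C19T, T131C, G161A and G205T, counted along Cyp2a4. Cyp2b10, in contrast, shared 71.0% of aligned positions with Cyp2b9. Genes that are such close copies can share array probes, so the values of a pair may not be independent. A close upstream sequence did not always go with a like ranking. Cyp3a25 and Cyp3a59 shared 94.8%, yet KO mouse 2 was the highest liver for Cyp3a25 and the lowest for Cyp3a59. Cyp2c23 and Cyp4f13, of different subfamilies, had the same order of mice. Whether sequence and ranking go together was not tested.

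Both Cyp2b windows hold the letters AGGTCA once, the core element of many nuclear receptor sites, and neither Cyp2a window does. AGGTCA occurred on either strand in 15 of the 59 members with a window (25.4%), against 14.0% of 32851 windows of the same length. TTCNNNGAA, the palindrome of STAT5 and BCL6 sites, occurred in 4 of the 59 (6.78%), against 7.02% of all windows, and in none of the 4 printed. Members were counted by the first window of each gene, while the background counts every window, so the shares are not strictly alike. Close copies within a subfamily each count, so their matches are not independent. A window with both motifs was counted under each, and a match describes the sequence only.

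Within Cyp2a the remaining genes were Cyp2a12 and Cyp2a22. Cyp2a12, the brightest of the subfamily's probe sets, differed by 0.02 ± 0.11, with an interval of -0.24 to 0.28. Cyp2a22 was at 6.00, 5.13 and 4.75 in KO livers, against 4.89, 5.98 and 4.30 in WT livers, so that KO mouse 1 and WT mouse 2 stood above the other 4. Its difference was 0.24 ± 0.43. Over the 4 Cyp2a genes tested the median was -0.18, with 2 higher and 2 lower.

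The Cyp2c subfamily on chromosome 19 held the members with the smallest p-values. Of its 13 genes 11 were tested, with 3 higher and 8 lower in KO livers and a median difference of -0.13. Cyp2c39, a retinoic acid hydroxylase, measured 4.43, 4.16 and 3.89 in KO livers, against 5.02, 5.12 and 4.67 in WT livers. No KO value reached the lowest WT value. The difference of -0.77 ± 0.17 (SE; 95% interval -1.15 to -0.40) is a signal 1.71-fold higher in WT livers. limma's adjusted p was 0.277, and it lay between 0.0760 and 0.507 over the alternative settings.

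Cyp2c40, an arachidonic acid hydroxylase listed as female-biased, measured 3.29, 3.03 and 3.29 in KO livers, against 3.77, 3.62 and 3.65 in WT livers. These values did not overlap either, and the WT values lay close together. The difference was -0.48 ± 0.11 (95% interval -0.72 to -0.23), a signal 1.39-fold higher in WT livers, with a limma adjusted p of 0.283 (0.243 to 0.522 over the alternatives). Both Cyp2c39 and Cyp2c40 are dim, and background on an array compresses the folds of dim genes.

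Cyp2c23, an arachidonic acid epoxygenase, pointed the other way. It measured 9.31, 9.57 and 9.68 in KO livers, against 9.21, 8.93 and 9.22 in WT livers, so every KO liver was above every WT liver, KO mouse 1 by little. The difference was 0.40 ± 0.13 (95% interval 0.10 to 0.70), 1.32-fold, with a limma adjusted p of 0.416. The other Cyp2c genes overlapped between the genotypes. Cyp2c29, an epoxygenase of hepatocytes around the central vein, differed by -0.06 ± 0.10 and Cyp2c50 by 0.07 ± 0.17. Cyp2c37, Cyp2c38, Cyp2c55, Cyp2c68 and Cyp2c69 differed by -0.10 to -0.22, and Cyp2c54 was 0.10 higher. A probe set shared by Cyp2c67 and Cyp2c68, which is no member, differed by -0.01.

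Cyp1a2 was the member of family 1 that could be tested. This enzyme oxidises caffeine and aromatic amines. It measured 9.24, 9.56 and 9.50 in KO livers, against 9.21, 9.14 and 9.08 in WT livers. The groups did not overlap, but the lowest KO liver and the highest WT liver were nearly level. The difference was 0.29 ± 0.11 (95% interval 0.04 to 0.54), with a limma adjusted p of 0.483. Nqo1 and Tiparp, the 2 other targets of the aryl hydrocarbon receptor that were tested of 6 listed, differed by -0.30 ± 0.23 and -0.06 ± 0.13. Their median was -0.18, and -0.0015 without WT mouse 2, which lay 0.45 above each gene's mean when averaged over the 2.

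In the Cyp2d subfamily on chromosome 15, 6 of 9 genes were tested, and 2 of them had all KO livers above all WT livers, as 9.63% of all genes tested did. Cyp2d10 measured 8.68, 8.79 and 8.85 in KO livers, against 8.29, 8.50 and 8.55 in WT livers, a difference of 0.33 ± 0.10 (adjusted p = 0.408 in limma). Cyp2d13, which the reference annotates as a transcribed pseudogene, measured 10.25, 9.98 and 9.81 in KO livers, against 9.75, 9.48 and 9.50 in WT livers. Its difference was 0.44 ± 0.13 (95% interval 0.13 to 0.75; adjusted p = 0.389 in limma). Cyp2d genes are close copies of one another, so the assignment of this signal to 1 gene is uncertain. The rest of the subfamily lay near 0. Cyp2d26 differed by -0.02 ± 0.09, Cyp2d22, the mouse counterpart of human CYP2D6, by -0.02 ± 0.10, and Cyp2d40 by -0.06 ± 0.17. The median of the 6 was -0.0064.

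Among single-gene subfamilies, Cyp2e1 had the smallest SD within a genotype of the 44 members tested, 0.03. This enzyme of ethanol, acetone and paracetamol oxidation measured 11.51, 11.58 and 11.54 in KO livers, against 11.55, 11.51 and 11.56 in WT livers. All 6 values were nearly alike, and the 95% interval of the difference, -0.19 to 0.20, was the narrowest of the 44. These values lay near the highest on the arrays, and whether signal is compressed there was not tested. Cyp2f2, which oxidises naphthalene and is enriched around the portal vein, measured 10.48, 10.18 and 10.73 in KO livers, against 10.24, 10.37 and 10.12 in WT livers, with overlap. Its difference of 0.22 ± 0.14 was 0.36 without KO mouse 2 and 0.08 without KO mouse 3. Cyp2r1, a vitamin D hydroxylase, differed by 0.0032 ± 0.16, and Cyp2u1, a fatty acid hydroxylase, by 0.15 ± 0.24.

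Cyp2j genes make epoxides of arachidonic acid. Of 7 Cyp2j genes 3 were tested, with a median of 0.11. Cyp2j9 measured 5.10, 5.21 and 4.65 in KO livers, against 4.72, 4.62 and 4.47 in WT livers, and overlapped only through KO mouse 3. Its difference was 0.38 ± 0.15 (adjusted p = 0.502 in limma). Cyp2j5, the liver and kidney member, differed by 0.11 ± 0.10 and Cyp2j6 by -0.20 ± 0.22.

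The Cyp3a subfamily on chromosome 5 holds the main drug-oxidising P450 of mouse liver, Cyp3a11, a PXR target. Cyp3a11 measured 9.84, 9.55 and 9.07 in KO livers, against 9.25, 9.73 and 9.14 in WT livers, and the groups overlapped over nearly their whole range. The difference was 0.12 ± 0.21 (95% interval -0.37 to 0.60). Of 7 Cyp3a genes 4 were tested, 3 higher and 1 lower, with a median of 0.20. Cyp3a13 was at 7.70, 7.64 and 8.08 in KO livers, against 7.50, 7.50 and 7.58 in WT livers, with no overlap and a difference of 0.28 ± 0.13 (adjusted p = 0.562 in limma). Cyp3a25 differed by 0.51 ± 0.28 (95% interval -0.12 to 1.15) and Cyp3a59 by -0.40 ± 0.18. Cyp3a25 was at 0.85 without KO mouse 3 and 0.29 without KO mouse 2, and Cyp3a59 at -0.17 without WT mouse 2. Probe sets shared by Cyp3a11, Cyp3a41 and Cyp3a44, which are no members, differed by 0.05 and 0.03.

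Cyp4f enzymes hydroxylate leukotrienes, fatty acids and vitamin E at the chain end, and in this subfamily 3 of the 4 tested genes had every KO value above every WT value, as 9.63% of all genes tested did. Cyp4f13 measured 6.23, 6.49 and 6.67 in KO livers, against 6.09, 6.08 and 6.21 in WT livers, a difference of 0.34 ± 0.12 (95% interval 0.06 to 0.62; adjusted p = 0.459 in limma). Cyp4f14 measured 7.74, 7.73 and 7.95 in KO livers, against 7.59, 7.05 and 7.70 in WT livers. Its difference was 0.36 ± 0.17 (adjusted p = 0.562 in limma), and 0.17 without WT mouse 2, the lowest liver. Cyp4f15 was at 7.43, 7.45 and 7.64 in KO livers, against 7.37, 7.24 and 7.31 in WT livers, a difference of 0.20 ± 0.10 (adjusted p = 0.593 in limma). Cyp4f17, with overlapping groups, differed by -0.04 ± 0.18. The median of the 4 was 0.27, and averaged over them the KO livers lay 0.02, 0.14 and 0.16 above each gene's mean and the WT livers at -0.12, -0.15 and -0.05. The remaining 5 Cyp4f genes were below the signal filter, including Cyp4f18, the neutrophil member.

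Cyp4a genes are the P450s known as PPAR alpha targets and fatty acid hydroxylases. Of 5 Cyp4a genes 3 were tested, with a median of 0.17, which turned to -0.22 without KO mouse 3 and to -0.15 without WT mouse 2. Cyp4a12a differed by -0.17 ± 0.25 and Cyp4a31 by 0.17 ± 0.21, both with overlapping groups. The probe set shared by Cyp4a10 and Cyp4a31, which is no member and was not tested, averaged 10.43 in KO and 10.64 in WT livers. Every KO value of that shared set lay below every WT value. The set of Cyp4a31 alone, higher in KO livers, was dimmer, with a mean of 5.78. The set shared by Cyp4a32 and Cyp4a10, also not tested, averaged 5.38 in KO and 5.77 in WT livers, with overlap. Cyp4b1, which acts on fatty acids and some protoxins, differed by 0.10 ± 0.21. Cyp4v3, the counterpart of a human fatty acid hydroxylase of the eye, differed by -0.17 ± 0.13. A probe set shared by Klkb1 and Cyp4v3, which is no member and was not tested, went the other way. It measured 9.04, 9.06 and 9.18 in KO livers, against 8.79, 8.83 and 8.98 in WT livers, a difference of 0.22 without overlap.

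**Figure D2:**
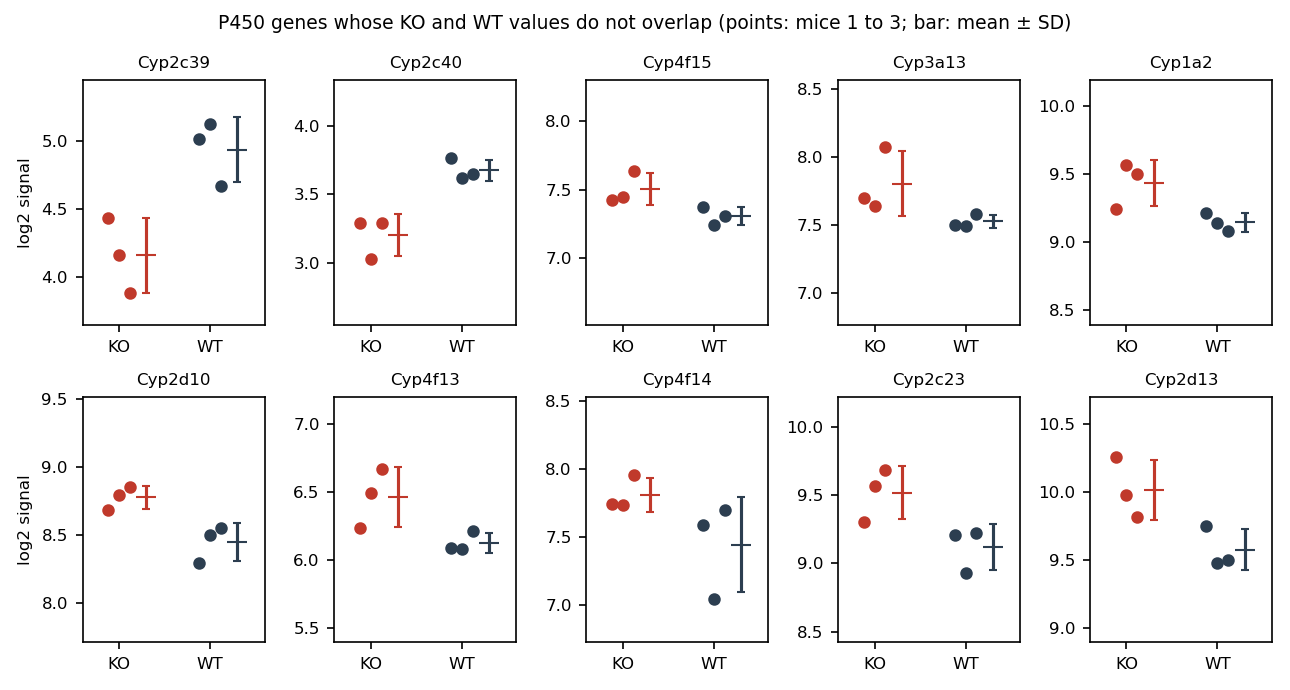
Log2 signal (vertical axis) of the 10 P450 genes tested whose KO and WT values do not overlap, with KO mice left of WT mice in each panel, 1 point per mouse and bars for the mean ± SD (n = 3 each). Cyp2c39 and Cyp2c40 are lower in KO livers, the other 8 are higher, and the gap between the groups is narrowest for Cyp1a2, Cyp4f13 and Cyp4f14.

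Several sex-biased P450 genes differed widely between mice of the same genotype. All 6 livers were those of males by label, and the Y-linked gene Eif2s3y, looked at afterwards, was at 6.43 to 6.57 in KO and at 6.39 to 6.54 in WT livers. Averaged over the 6 female-biased P450 genes tested of 13 listed, KO mice 1 to 3 lay at 0.40, -0.49 and -0.43 from each gene's mean and WT mice 1 to 3 at 0.02, 0.96 and -0.46. In these averages WT mouse 2 stood highest, and the other WT mice lay within the range of the KO mice. Cyp2b9, with its far wider range, weighs most in them, and WT mouse 2 was the highest liver for 3 of the 6 genes. Of the 6, 1 was higher and 5 were lower in KO livers, with a median of -0.31, and without WT mouse 2 the split was 3 and 3 with a median of 0.01. Averaged over the 5 male-biased P450 genes tested of 6 listed, KO mice 1 to 3 lay at -0.32, -0.03 and 0.47 and WT mice 1 to 3 at 0.08, -0.31 and 0.10. Their median was 0.15, and -0.15 without WT mouse 2.

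Cyp2d9, the male-biased steroid hydroxylase, measured 8.55, 9.01 and 9.21 in KO livers, against 9.16, 8.45 and 9.14 in WT livers, a difference of 0.0044 ± 0.22. Cyp4a12b, a male-biased arachidonic acid hydroxylase, measured 6.05, 6.81 and 7.73 in KO livers, against 7.05, 5.88 and 7.01 in WT livers, a difference of 0.22 ± 0.43. Both genes had the same order of mice, with KO mouse 3 highest, then WT mice 1 and 3, KO mouse 2, KO mouse 1 and WT mouse 2 lowest. KO mouse 1 and WT mouse 2, the lowest for both genes, were the highest for Cyp2b9. Other sex-biased members did not all follow this order. Cyp4a12a, also male-biased, was lowest in KO mouse 2 at 5.86, with WT mouse 2 at 6.55. WT mouse 2 was the lowest liver for 2 of the 5 male-biased P450 genes tested.

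**Figure D3:**
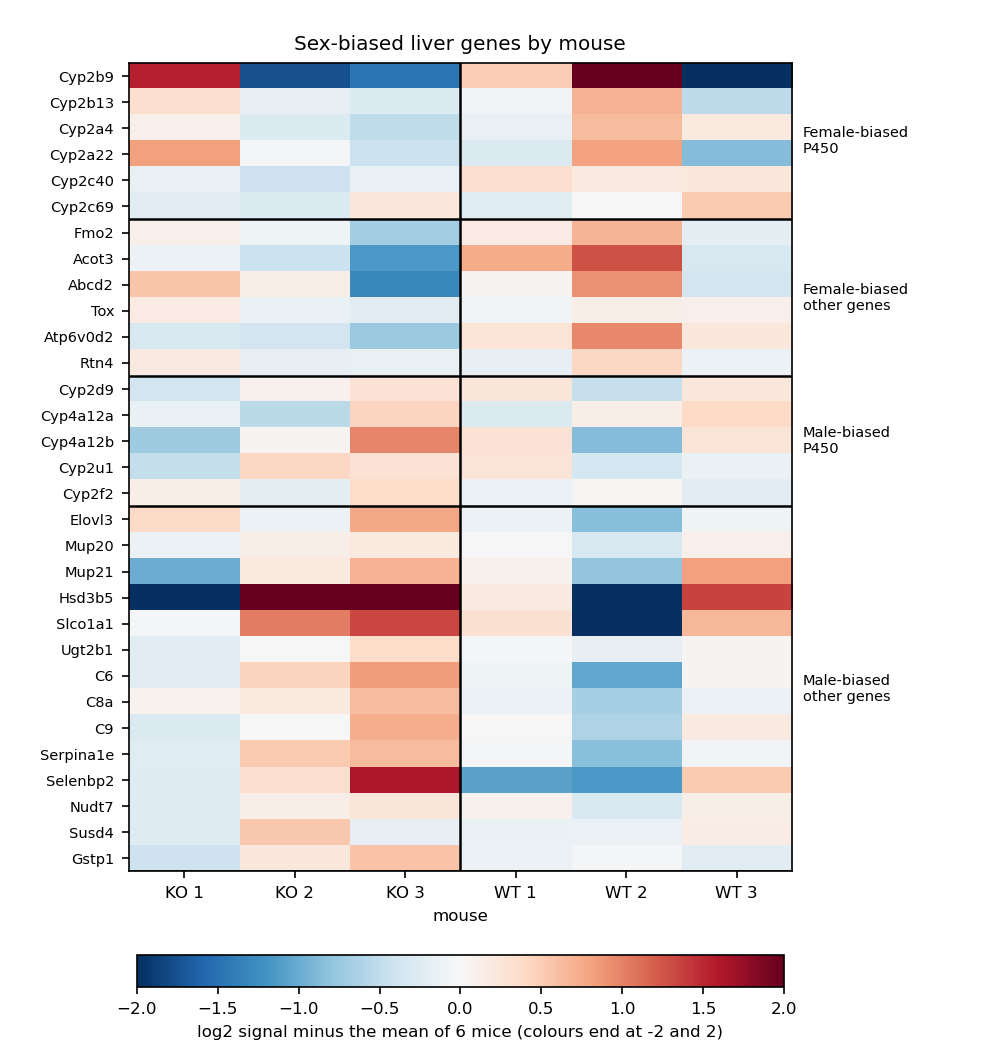
Heat map of sex-biased genes tested (rows, P450 and other genes by direction of bias) in each liver (columns, KO mice left of WT mice), coloured by log2 signal minus the gene's mean over the 6 mice, with colours ending at -2 and 2. KO mouse 1 and WT mouse 2 are high for Cyp2b9 (8.43 and 10.32 log2) and low for Cyp4a12b (6.05 and 5.88 log2). Not every row follows this order: Cyp4a12a is lowest in KO mouse 2 (5.86 log2), with WT mouse 2 at 6.55 log2.

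Sex-biased genes outside the P450 families also differed most in WT mouse 2, and their part in the P450 values was not tested. Of 18 male-biased genes 14 were tested, 13 higher and 1 lower in KO livers, with a median of 0.45, and WT mouse 2 was the lowest for 10 of them. Of 15 female-biased genes 6 were tested, all 6 lower, with a median of -0.43. Without WT mouse 2 these medians were 0.17 and -0.15. None of either list passed the test. C8a, a complement gene, differed by 0.60 ± 0.19 (adjusted p = 0.401 in limma) and Elovl3, a fatty acid elongase, by 0.70 ± 0.26 (adjusted p = 0.469 in limma). Atp6v0d2, a female-biased proton pump subunit, differed by -0.96 ± 0.21 (adjusted p = 0.277 in limma), and WT mouse 2 was the highest liver for 5 of the 6 female-biased genes. Hsd3b5, a male-specific steroid dehydrogenase named after its values were seen, measured 3.24, 7.35 and 7.74 in KO livers, against 5.52, 1.51 and 6.69 in WT livers.

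**Figure D4:**
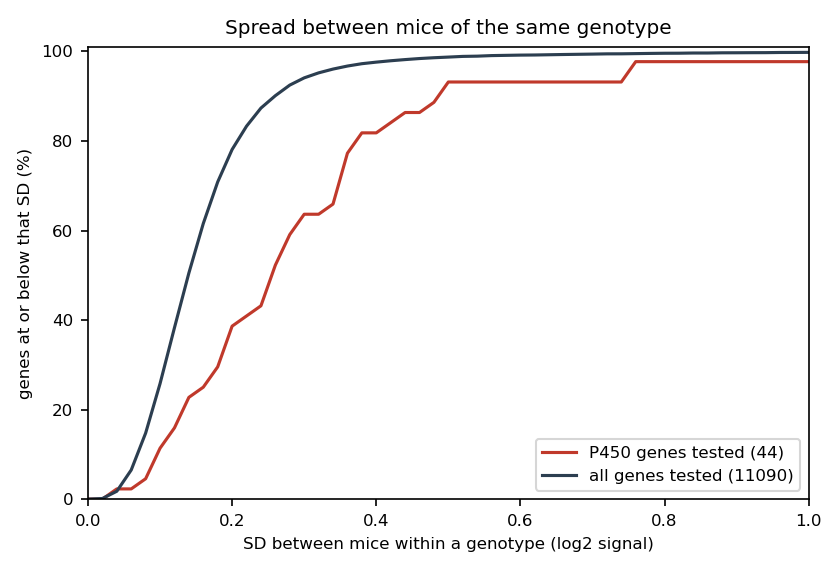
Cumulative share (percent, vertical axis) of the SD within a genotype (log2, horizontal axis) for the 44 P450 genes tested and for all 11090 genes tested. The P450 curve lies to the right, with a median of 0.258 against 0.139, and Cyp2b9, Cyp4a12b and Cyp2a22 are the 3 members beyond the 99th percentile of all genes.

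Among the 44 members, WT mouse 2 was the highest liver for 12 and the lowest for 11, and KO mouse 3 was the highest for 13 and the lowest for 9. WT mouse 1, in contrast, was the highest for 1 and the lowest for 4. So the livers at the extremes were WT mouse 2 and KO mouse 3, 1 of each genotype.

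Genes were also grouped by lists from around the central and the portal vein. Whole liver RNA does not show where in the lobule they were expressed. The 9 pericentral P450 genes, all tested, were 5 higher and 4 lower with a median of 0.0042, or -0.07 without WT mouse 2. The 9 pericentral genes outside the P450 families were 3 higher and 6 lower with a median of -0.20. Rhbg, an ammonium transporter, was the only gene of that list past the threshold: it was at 3.97, 3.81 and 3.76 in KO livers, against 4.94, 5.16 and 4.78 in WT livers, and fell by 1.12 ± 0.12 (adjusted p = 0.0315 in limma, 0.00513 to 0.137 over the alternatives). Oat, ornithine aminotransferase, was at 10.16, 10.36 and 9.88 in KO livers, against 10.77, 10.66 and 10.78 in WT livers, a difference of -0.60 ± 0.13 (adjusted p = 0.277 in limma). Glul, glutamine synthetase, which was named after its values were seen, differed by -0.26 ± 0.09 (adjusted p = 0.437 in limma). The 6 periportal genes tested outside the P450 families, of 8 listed, had a median of -0.04. Whether the 2 pericentral lists differ from each other was not tested.

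Of the genes that serve P450 enzymes by passing electrons or by making and breaking down haem, 16 of 18 were tested, 6 higher and 10 lower, with a median of -0.04 and none past the threshold. Hmox1, which degrades haem, measured 4.32, 4.09 and 4.56 in KO livers, against 4.63, 4.67 and 4.82 in WT livers. No KO value reached a WT value, and the difference was -0.38 ± 0.13 (adjusted p = 0.437 in limma). Hmox2, its constitutive relative, differed by 0.18 ± 0.09 (adjusted p = 0.605 in limma).

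Of 24 regulators of P450 genes 22 were tested, 17 higher and 5 lower in KO livers, with a median of 0.07 and none past the threshold. Bcl6, a repressor that competes with STAT5 at female-biased genes, measured 6.81, 6.88 and 7.25 in KO livers, against 6.50, 6.26 and 6.39 in WT livers. Every KO liver was above every WT liver, by 0.59 ± 0.13, with a limma adjusted p of 0.283 (0.190 to 0.481 over the alternatives). Tef, a clock-controlled transcription factor, differed by 0.31 ± 0.10 (adjusted p = 0.416 in limma). The receptors themselves were looked at afterwards. Nr1i2, which encodes PXR, was at 7.44, 7.63 and 7.71 in KO livers, against 7.30, 7.39 and 7.12 in WT livers, a difference of 0.32 ± 0.11 (adjusted p = 0.442 in limma). Nr1i3, which encodes CAR, differed by 0.21 ± 0.16, Ppara by 0.03 and Ahr by -0.07.

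Targets of these receptors outside the P450 families gave no call either. Of 16 targets of CAR and PXR 12 were tested, 2 higher and 10 lower, with a median of -0.22, and WT mouse 2 was the highest liver for 9 of them. Aldh1a1, a retinaldehyde dehydrogenase, differed by -0.27 ± 0.09 (adjusted p = 0.437 in limma) and Gstt1, a glutathione transferase, by -0.25 ± 0.10 (adjusted p = 0.509 in limma). The 10 P450 targets of CAR and PXR tested, of 11 listed, were 4 higher and 6 lower, with a median of -0.07. Of 24 PPAR alpha targets 20 were tested, 4 higher and 16 lower, with a median of -0.14, or -0.05 without WT mouse 2. Cidea, a lipid droplet protein, differed by -1.31 ± 0.45 and Acot3, an acyl-CoA thioesterase, by -1.13 ± 0.39, both with a limma adjusted p of 0.437.

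No marker of the other liver cell types passed the threshold. The 6 Kupffer cell markers had a median difference of 0.20, with KO mice at -0.21 to 0.40 and WT mice at -0.41 to 0.54 around each gene's mean. The 5 sinusoidal endothelial markers had a median of -0.03, with KO mice at -0.14 to 0.10 and WT mice at -0.14 to 0.21. The 5 stellate cell markers had one of 0.0029, with KO mice at -0.03 to 0.14 and WT mice at -0.36 to 0.13. Of 5 bile duct markers 1 was bright enough to be tested. Their part in the P450 values was not tested.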

How the data were processed

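Liver RNA of 6 mice was extracted with Trizol and labelled with biotin as cRNA from 100 ng for a whole-transcript array, per the labels' protocols. The authors deposited log2 values for 41345 probe sets, 1 column per mouse; the sources used here do not give the summary and normalization behind them, and that the scale is log2 was judged from their range. Array medians were 2.67 to 2.73, and arrays correlated at 0.983 to 0.988. Depth has no meaning for arrays; the number of mice limits precision.

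Gene symbols came from the platform's annotation and were brought up to date with RefSeq (GRCm38.p6). Of these, 23521 carried 1 symbol, 1814 several and 16010 none. Sets with several or no symbols were left out, and the brightest set stood for a gene. Genes at or above a mean of 2.99 were tested. One two-sided fit over all tested genes set KO against WT (limma 3.58.1, functions lmFit and eBayes without covariates, run in R 4.3.3), with Benjamini-Hochberg adjustment at 0.05, and single genes by exact permutation; the fit was tested on simulated data. Upstream windows were aligned with Biopython 1.88.

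The members and gene lists were chosen with earlier results of these data known. Named were, per subfamily, the brightest and the smallest-p member, and members without overlap and at least 0.3 apart; per list, genes past the threshold or otherwise the 2 of smallest p; other members by value. Same-numbered KO and WT mice did not deviate together (correlations 0.06, -0.19 and 0.15), so the numbers were not used as pairs. Alternatives covered the signal filter, probe-set mean, normalization, centring, pseudocount, variance model, array weights, replicate block and each mouse left out.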

Additional observations from a re-analysis of the deposited data

How the results depend on the processing

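In all 15 alternative settings 0 of the P450 genes tested passed limma's adjusted threshold. The count of P450 genes at an unadjusted p under 0.05 and higher in KO livers, 6, was 2 to 6 when a mouse was left out, with 2 without WT mouse 2, and 5 to 9 in the other settings, with 9 under the replicate block. The count lower in KO livers, 3, was 0 in the upper 25% of signal, where fewer genes are tested, 5 with array weights and 2 to 6 when a mouse was left out, with 6 without WT mouse 1. Over all genes 4 passed; 0 did in the upper 25% of signal, 1 with a pseudocount of 16, 1 with the replicate block, and 1 to 51 when a mouse was left out, with 51 without WT mouse 3. The cause was not tested. Subfamily medians moved by less than the within-genotype SD in all 119 recomputations. When a mouse was left out they ranged from -1.45 to 0.29 for Cyp2b, with 2 tested genes, from -0.22 to 0.35 for Cyp4a, from -0.0063 to 0.13 for Cyp2d and from 0.17 to 0.32 for Cyp4f. In the upper 25% of signal the Cyp2a median was 0.02 and the Cyp2j median -0.05. The medians of gene lists without WT mouse 2 were added after seeing the data.

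For the 25 members named by the rule on signal, p and separation, 346 of 371 recomputed differences kept their sign, 14 members kept it throughout, and 25 differences, on 11 members none of which was called, turned. Of the 19 other members tested, 12 turned when some mouse was left out, among them Cyp2a22, Cyp2b13, Cyp2d9 and Cyp4a12a. Leaving out a mouse gave ranges of -0.0730 to 0.10 for Cyp2a12, -2.53 to 0.33 for Cyp2b9, -0.0693 to 0.21 for Cyp2c50, -0.0425 to 0.0296 for Cyp2d26, -0.0133 to 0.0223 for Cyp2e1, -0.17 to 0.13 for Cyp2r1, -0.0185 to 0.43 for Cyp2u1, -0.0598 to 0.33 for Cyp3a11, -0.22 to 0.62 for Cyp4a12b, -0.10 to 0.35 for Cyp4a31 and -0.11 to 0.32 for Cyp4b1. Quantile normalization gave -0.0015 for Cyp2a12, -0.0169 for Cyp2e1 and -0.0418 for Cyp2r1. Median centring gave -0.0100 for Cyp2e1 and -0.0111 for Cyp2r1. The pseudocount gave -0.0014 for Cyp2r1, and array weights gave -0.0053 for Cyp2a12 and -0.0184 for Cyp2r1. With 3 mice a genotype, the 95% interval of a typical member reached 0.378 to either side, and no difference was called, the -0.77 of Cyp2c39 included.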
